A study of Mus musculus with 4 samples.

Results

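The genes described here are 39 components of T cell receptor signalling: the CD3 chains and CD4, the proximal kinases, the adaptors and effector enzymes behind them, and the proteins that restrain the pathway. They were chosen by symbol from a list of names, with earlier results of these data known. All 39 were found among the 17478 genes listed in at least 1 library. By textbook role, 25 were set down as activators and 14 as inhibitors. RNA was sequenced from CD4+ T cells of C57BL/6 mice aged 6 to 8 weeks. The cells came from spleen and lymph nodes, were sorted as naive by low CD44 and high CD62L, and were activated with antibodies against CD3 and CD28 for 3 days under Th9 conditions, which favour interleukin 9 secretion. The control group was wild type (WT, 2 libraries). The other group was labelled BFAR-/- (2 libraries) and came from mice with a conditional deficiency in T cells, so it is called the knockout below. The Cre driver is not given in the sources used here, nor is whether the libraries of a group came from separate mice. The p-values are therefore measured against a spread between samples that could be purely technical.

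The T cell receptor has no enzyme of its own. Its signal starts when the kinase LCK, carried by CD4, phosphorylates the tails of the CD3 chains, which then bind the kinase ZAP-70. ZAP-70 phosphorylates the adaptors LAT and SLP-76, and on these assemble a phospholipase, Ras exchange factors and the path to NF-kB, while phosphatases, ubiquitin ligases and diacylglycerol kinases turn the signal down.

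The libraries held 19058009 to 19782923 summed expected counts. Bfar, the targeted gene, had 36.4 and 32.9 CPM (each count divided by the scaled library total) in the WT libraries and 8.45 and 7.79 CPM in the knockout libraries, so the labels held. Markers of helper T cells were abundant. Of 11 such genes 8 were listed, and their summed level was 5384 and 5269 CPM in WT and 6008 and 5927 CPM in the knockout. Il2ra alone held 3290 and 3169 CPM in WT and 3616 and 3592 CPM in the knockout. Cd3d, Cd3e, Cd3g and Cd4 are themselves members, so this sum is not independent of the results below. Of the 8, 6 were called higher in the knockout and none lower (adjusted p under 0.05 in edgeR). Of all 12677 tested genes, 13.6% were called higher and 13.2% lower. The constant-region genes Trac, Trbc1 and Trbc2 were not listed. Of 48 markers of other cells 34 were listed, and together they made up 62.8 and 64.7 CPM in WT and 74.5 and 74.8 CPM in the knockout. Of the 14 of these that could be tested, 3 were called higher and none lower, against 13.6% and 13.2% of all tested genes. Kit had 1.51 and 1.32 CPM in WT and 3.58 and 3.32 CPM in the knockout (2.43-fold), Xcr1 had 1.21 and 1.01 against 2.38 and 2.63 CPM (2.25-fold), and Pecam1 had 17.9 and 16.7 against 25.4 and 25.8 CPM (1.48-fold). The folds of Kit and Xcr1 exceed that of any member, at levels of a few CPM. Cd14 stayed at or below 0.0505 CPM, and Lyz2, Csf1r, Ncr1 and Cpa3 were not listed in any library. Some other markers were detected in every library. Cd68, for macrophages, had 4.10 to 4.92 CPM, and Nkg7, for natural killer cells, had 9.01 to 9.69 CPM. Cd8b1, for CD8 T cells, had 8.50 to 9.82 CPM, and Cd79b, for B cells, had 3.00 to 4.71 CPM. The part of these differences in the results below was not tested. In bulk RNA, fewer cells of a type and less RNA per cell cannot be told apart.

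Loss of Bfar went with small changes in many of these genes and with a large change in none. In the edgeR test 21 of the 39 changed (53.8%, at an adjusted p under 0.05), against 26.8% of all 12677 tested genes. Of these 16 rose and 5 fell, that is 41.0% and 12.8%, against 13.6% and 13.2% of all tested genes. All 39 passed the filter on low counts. They are abundant, 37 of them above a mean of 25 CPM, and of all genes that abundant 36% changed, 16.6% upward and 19.3% downward. The share that rose was thus above either background, and the share that fell was near the first and below the second. Because the members were chosen with earlier results of these data known, these shares are a description, not an independent test. In 30 of the 39 the CPM values of the groups did not overlap (19 higher and 11 lower in the knockout), against 63.5% of all tested genes (31.6% and 31.9%). The log2 fold changes, knockout over WT, ran from -0.29 for Cd6 to 0.70 for Cblb, with a median of 0.11 against 0.00 for all tested genes. An absolute value of at least 0.25 was reached by 10 members, all of them called, against 14.7% of tested genes that were called at that size. Called or not, 3341 of the 12677 tested genes reached it. The median absolute log2 fold change was 0.138 for the members and 0.137 for all tested genes. The count of falls was the less stable: 2 members fell without WT replicate 1 and 3 without knockout replicate 2, while rises numbered 12 to 16 whichever library was left out. Fewer of all tested genes were called in those fits too, and no share was computed there for genes as abundant as the members. Cblb, Themis, Malt1 and Ptpn22 passed the test under all 13 alternative fits. Another 8 called members lost the call only when FPKM values (levels scaled to gene length and depth) were tested without a filter, and the other 9 lost it under further alternatives, given beside them with the adjusted p in parentheses.

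**Figure D1:**
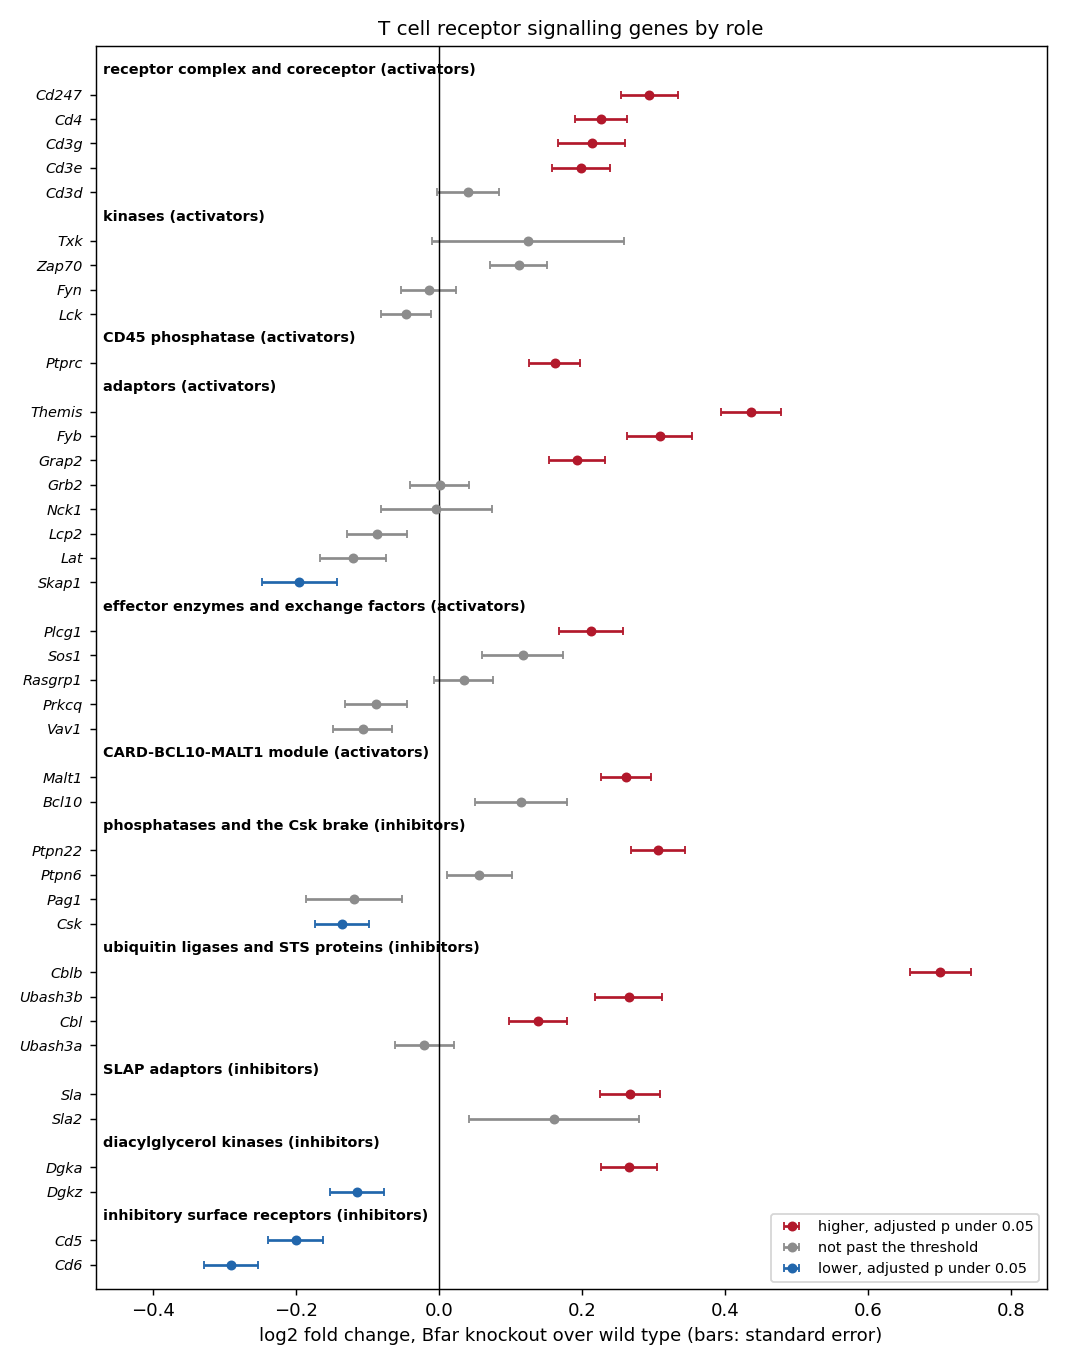
Log2 fold change, knockout over WT (x axis), of each of the 39 genes, ordered by role, from the edgeR fit to 2 libraries per group; bars are standard errors and colour gives the outcome of the test. Cblb stands farthest right at 0.70 and Cd6 farthest left at -0.29, and both activator and inhibitor roles hold genes on either side of 0.

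Activators and inhibitors each held genes that rose and genes that fell. Among the 25 activators 10 rose and 1 fell (40% and 4%). Among the 14 inhibitors 6 rose and 4 fell (42.9% and 28.6%). The shares were 13.6% and 13.2% for all tested genes, and 16.6% and 19.3% for those averaging 25 CPM or more. The share of falls was thus below either background for activators and above both for inhibitors. Of the inhibitor falls, those of Csk and Dgkz lost their calls in several alternative fits. The median log2 fold changes of activators and inhibitors were 0.11 and 0.10. Leaving out 1 library moved the inhibitors' median most: it was 0.02 without WT replicate 1 and 0.04 without knockout replicate 2, and the activators' median was 0.07 without WT replicate 1. An absolute log2 fold change of at least 0.25 was reached by 3341 of the 12677 tested genes. The inhibitors held more changes of that size, with 6 of 14 against 4 of 25 activators. The products of 4 of the genes, CD45, THEMIS, CD6 and MALT1, are known for roles of both kinds, and without them the medians were 0.08 for activators and 0.14 for inhibitors. In summed FPKM, a level per length, the activators reached 2086 and 2089 in WT and 2218 and 2151 in the knockout. The inhibitors reached 907 and 908 in WT and 895 and 916 in the knockout, values that overlap. The ratio of these sums, inhibitors over activators, was 0.435 in each WT library and 0.403 and 0.426 in the knockout libraries. Such sums weigh abundant genes most. The 5 receptor and coreceptor genes alone reached 612 and 614 in WT and 715 and 690 in the knockout. The adaptors reached 700 and 683 in WT and 688 and 642 in the knockout.

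**Figure D2:**
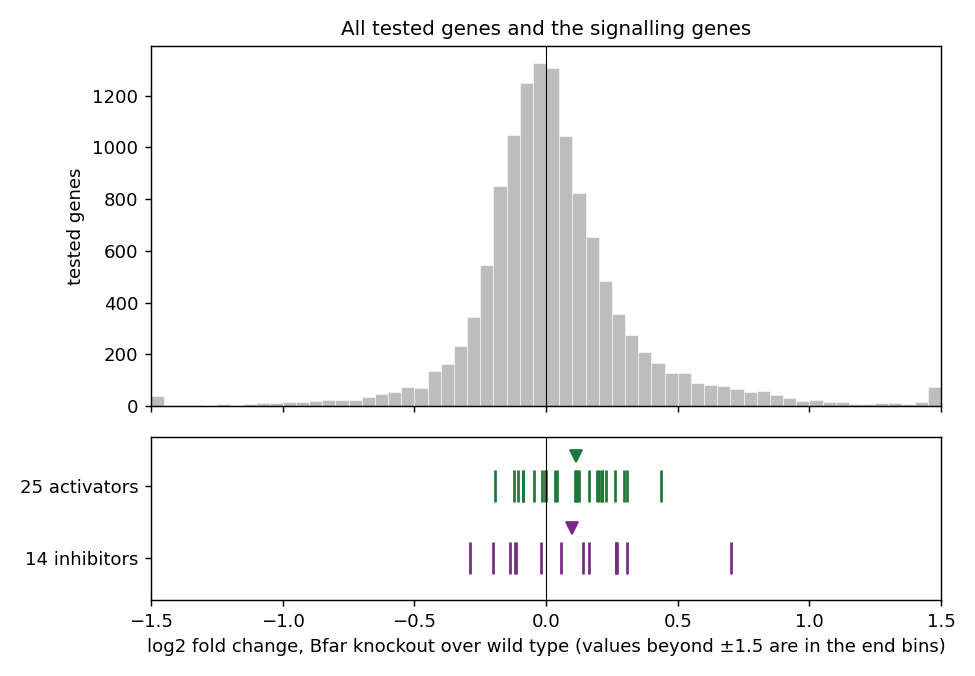
Upper panel: number of tested genes (y axis) by log2 fold change, knockout over WT (x axis, bins of 0.05). Lower panel: each vertical mark is 1 of the 25 activators or 14 inhibitors and each triangle a median, at 0.11 and 0.10, just right of the peak of all genes.

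Of the receptor chains and coreceptor, 4 of 5 rose and none fell. CD247, the zeta chain, carries most of the receptor's phosphorylation motifs, and its gene Cd247 had 129.5 and 126 CPM in WT and 157 and 156 CPM in the knockout. The groups did not overlap, at a log2 fold change of 0.29 ± 0.04 (adjusted p = 8.61e-05 in edgeR; here and below ± gives the SE from 2 libraries per group). In the annotation, 54.4% of its 31-base words lie antisense to the neighbour Pou2f1, and the strand setting of the counting is not given in the sources used here, so part of the value could come from Pou2f1. That gene had 79.8 and 81.5 CPM in WT and 86.7 and 86.9 CPM in the knockout (log2 0.11 ± 0.04, adjusted p = 0.0923). Cd4, the coreceptor that brings LCK to the receptor, had 592 and 581 CPM in WT and 702 and 671 CPM in the knockout. It rose by 0.23 ± 0.04 on the log2 scale (adjusted p = 3.00e-04), a 1.17-fold difference between groups that lay well apart.

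The genes of the CD3 gamma, delta and epsilon chains lie side by side on chromosome 9, and only Cd3g and Cd3e passed the test. Cd3g (44969572 to 44980431, GRCm38.p6) had 133 and 143 CPM in WT and 165 and 155 CPM in the knockout, a rise of 0.21 ± 0.05. Cd3e (44998735 to 45009663) had 183 and 175 CPM in WT and 208 and 202 CPM in the knockout, a rise of 0.20 ± 0.04. Cd3d (44981769 to 44987052), between them and only 1338 bases from Cd3g, had 109 and 113 CPM in WT and 113 and 116 CPM in the knockout, so its groups overlapped. Its log2 fold change was 0.04 ± 0.04 (adjusted p = 0.534), with a 95% interval from -0.05 to 0.13. The intervals of Cd3g (0.11 to 0.31) and Cd3e (0.11 to 0.29) overlap that of Cd3d. The difference in change between the genes was not tested. The FPKM ratio of Cd3g to Cd3d was 1.60 and 1.66 in WT and 1.92 and 1.76 in the knockout. For that ratio an exact permutation of 2 against 2 libraries cannot give a two-sided p below 0.333. The adjusted p of Cd3g was 0.0033, but 0.0636 without WT replicate 1, 0.0905 without knockout replicate 1 and 0.0536 with low counts kept. That of Cd3e was 0.00209, and 0.054 without knockout replicate 1.

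Upstream sequences are shown for Cd3g and Cd3d, because the genes are neighbours on opposite strands with different values. Each is the 250 bases before a start in RefSeq's GRCm38.p6 promoter windows, 5′ to 3′ on the gene's strand, and the Cd3d window reaches 17 bases into the gene span given above, with capitals marking matches, on either strand, to 5 searched motifs.
Cd3g (chr9:44980432-44980681, minus strand): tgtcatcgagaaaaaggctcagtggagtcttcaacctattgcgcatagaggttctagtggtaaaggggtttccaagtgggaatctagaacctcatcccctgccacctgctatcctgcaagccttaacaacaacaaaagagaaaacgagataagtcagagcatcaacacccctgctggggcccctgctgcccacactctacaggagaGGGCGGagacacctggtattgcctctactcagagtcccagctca
Cd3d (chr9:44981536-44981785, plus strand): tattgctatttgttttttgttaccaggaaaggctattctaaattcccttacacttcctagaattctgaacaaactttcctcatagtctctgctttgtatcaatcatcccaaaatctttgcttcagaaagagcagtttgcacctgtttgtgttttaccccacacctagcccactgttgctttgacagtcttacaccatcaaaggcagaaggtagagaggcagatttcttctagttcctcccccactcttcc

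The motifs were a GC box (GGGCGG), an NFAT core (GGAAAA), a RUNX core (TGTGGT), an extended ETS motif (CCGGAAG) and an AP-1 site (TGANTCA). Only these full strings counted as matches, and shorter forms were not searched. The GC box motif occurred in the Cd3g window, and the Cd3d window held no match to any of the 5. RefSeq windows were found for 33 members (48 windows, since some genes have several starts), and 34 of the 48 overlap the span of their gene. GC box matches were present in 18 of these 48 windows (37.5%), against 32.7% of 32851 windows of all genes. NFAT core matches were present in 18.8% against 20.4%, and RUNX core matches in 12.5% against 14%. The ETS and AP-1 motifs had no match in the 48 windows, where all genes had 6.91% and 6.75%. Such matches are letters in a window, not measured binding.

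No gene of the proximal kinases passed the test. Lck, the kinase that starts the signal, was nearly level with 482 and 484 CPM in WT and 469.6 and 466 CPM in the knockout. The log2 fold change was -0.05 ± 0.03 (adjusted p = 0.363) with a 95% interval from -0.12 to 0.03, although the groups did not overlap. Fyn, the related Src-family kinase, had -0.01 ± 0.04, and Txk, a Tec-family kinase at only 5.96 to 7.27 CPM, had 0.13 ± 0.13. Zap70 had 254 and 271 CPM in WT and 281 and 286 CPM in the knockout, all higher than in WT. Its log2 fold change of 0.11 ± 0.04 fell just short of the threshold (adjusted p = 0.0528). Over all fits it ran from 0.065 to 0.16, the latter without WT replicate 2. It passed when scaled by upper quartiles (0.038) or when only genes averaging 1 CPM or more were kept (0.0452). It did not pass in DESeq2 (0.156), with low counts kept (0.145) or in limma on log2(FPKM + 0.1) (0.109). Ptprc encodes CD45, the phosphatase that keeps LCK ready by removing its inhibitory phosphate. It rose from 648 and 679 CPM to 739 and 746 CPM, or by 0.16 ± 0.04 (adjusted p = 0.00353). That call was lost without WT replicate 1 (0.0667) or knockout replicate 2 (0.0624).

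The adaptors split. Of 8, Themis, Fyb and Grap2 rose, Skap1 fell, and Lat, Lcp2, Grb2 and Nck1 did not pass. Themis, a T cell adaptor best known from thymocyte selection, had 93.7 and 93.4 CPM in WT and 126 and 128 CPM in the knockout. Its 1.35-fold rise (log2 0.44 ± 0.04, adjusted p = 2.29e-06) was the largest among activators, and the libraries of each group lay close together. Fyb, which encodes the adaptor ADAP that links the receptor to integrin activation, had 125 and 115 CPM in WT and 149 and 148 CPM in the knockout (log2 0.31 ± 0.05, adjusted p = 1.49e-04). Skap1 encodes the protein that ADAP binds and stabilises, and it went the other way. Its level was 60.0 and 59.0 CPM in WT and 50.4 and 53.5 CPM in the knockout, a fall by 0.20 on the log2 scale (SE 0.05, adjusted p = 0.0121). That call was lost without WT replicate 1 (0.0844) or knockout replicate 1 (0.123), in DESeq2 (0.15) and with low counts kept (0.0559).

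LAT and SLP-76 form the platform on which the signal branches, and GADS, the product of Grap2, joins them. Lat had the highest FPKM of all members, with 382 and 369 in WT and 364 and 325 in the knockout. In CPM it had 483 and 467 against 461 and 413, with the lowest value in knockout replicate 2. The log2 fold change was -0.12 ± 0.05 (adjusted p = 0.0666). Over all fits it ran from -0.20, without knockout replicate 1, to -0.04. Lcp2, which encodes SLP-76, had -0.09 ± 0.04 (adjusted p = 0.144). Its values over all fits ran from -0.15, without knockout replicate 1, to -0.02. Grap2 rose by 0.19 ± 0.04 (adjusted p = 0.00219), a call lost without knockout replicate 2 (0.0632). The values of the 3 platform genes thus did not share a sign. The adaptors Grb2 and Nck1 stood at 0.00 ± 0.04 and 0.00 ± 0.08. Grb2 shares 12.1% of its 31-base words with Gm12791.

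Among the effector enzymes and exchange factors 1 of 5 rose and none fell. Plcg1 encodes the phospholipase that makes the second messengers for calcium and Ras signalling. It rose from 237 and 248 CPM to 269 and 293 CPM, or by 0.21 ± 0.04 (adjusted p = 0.00255), but the call was lost when knockout replicate 2 was left out (0.0872) or low counts were kept (0.0527). Rasgrp1 and Sos1, the Ras exchange factors, had 0.04 ± 0.04 and 0.12 ± 0.06. Vav1, an exchange factor for small GTPases, had -0.11 ± 0.04 (adjusted p = 0.0703). Prkcq, which encodes the protein kinase C theta that leads to NF-kB, had -0.09 ± 0.04 (adjusted p = 0.154). Downstream of it, Malt1 encodes a paracaspase that works in a complex with BCL10. Malt1 had 345 and 347 CPM in WT and 414 and 416 CPM in the knockout, among the tightest replicates of all members. It rose by 0.26 ± 0.04 (adjusted p = 7.33e-05), while its partner Bcl10 had 0.11 ± 0.06 (adjusted p = 0.204).

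**Figure D3:**
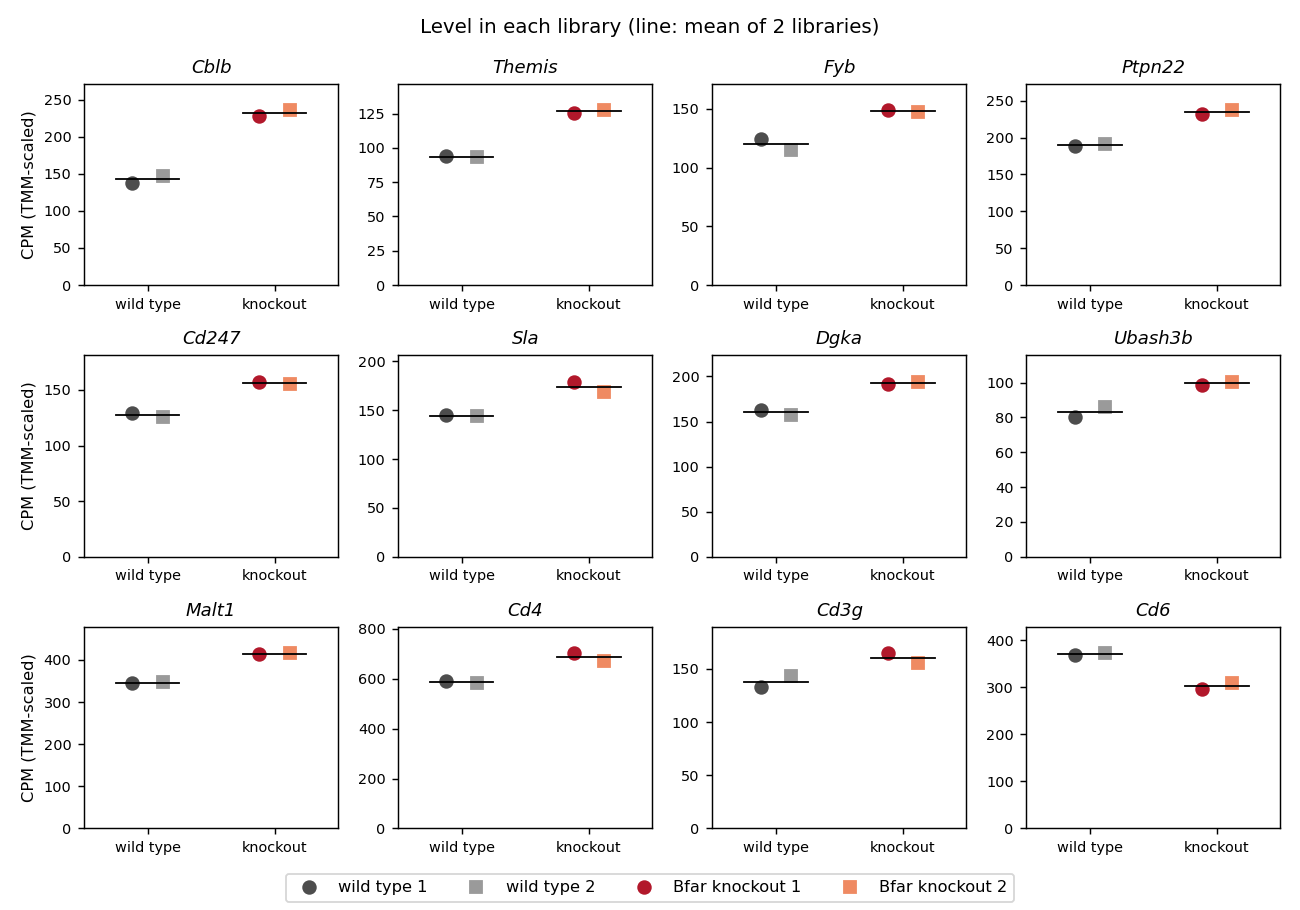
CPM in each library (y axis, from 0) for the 12 called members with the largest absolute log2 fold change; points are single libraries, 2 per group, and lines are group means. In 11 panels both knockout libraries lie above both WT libraries, from Cblb (138 and 147 against 228 and 236) to Cd3g, and in Cd6 they lie below.

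The largest change of all 39 was in an inhibitor. Cblb encodes CBL-B, a ubiquitin ligase that raises the threshold for T cell activation without costimulation. Cblb (chromosome 16) had 138 and 147 CPM in WT and 228 and 236 CPM in the knockout, with no overlap. It rose 1.63-fold, by 0.70 ± 0.04 on the log2 scale (adjusted p = 2.16e-08). Its relative Cbl rose by only 0.14 ± 0.04 (adjusted p = 0.0197), a call lost without WT replicate 1 (0.0984), WT replicate 2 (0.0927) or knockout replicate 2 (0.159), in DESeq2 (0.117), with low counts kept (0.0633), and in limma on log2(FPKM + 0.1) (0.0698) or log2(FPKM + 1) (0.0699). The FPKM ratio of Cblb to Cbl was 0.760 and 0.810 in WT and 1.16 in each knockout library, so the order of the 2 genes per length turned between the groups.

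The STS proteins, encoded by Ubash3a and Ubash3b, bind CBL proteins, and STS-1 from Ubash3b is the more active phosphatase. Ubash3b had 80.0 and 85.7 CPM in WT and 98.8 and 101 CPM in the knockout, a rise of 0.27 ± 0.05 (adjusted p = 6.61e-04). Ubash3a had -0.02 ± 0.04 (adjusted p = 0.768) with a 95% interval from -0.11 to 0.07, so a rise of the size seen in Ubash3b lay outside its interval. SLAP proteins work with CBL to remove CD3 chains from the surface. Sla had 145 and 144 CPM in WT and 179 and 169 CPM in the knockout, a rise of 0.27 ± 0.04 (adjusted p = 2.82e-04). Sla2, its relative, was far lower, with 8.83 to 11.4 CPM, and had 0.16 ± 0.12. Of its 31-base words 21.5% lie antisense to Rab5if.

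Phosphatases and the Csk brake went both ways. Ptpn22 encodes a phosphatase that removes activating phosphates from LCK and ZAP-70 and acts in complex with CSK. It had 188.5 and 192 CPM in WT and 233 and 238 CPM in the knockout, a rise of 0.31 ± 0.04 (adjusted p = 3.69e-05). Csk, the kinase that puts the inhibitory phosphate on LCK, had 436 and 419.7 CPM in WT and 383 and 396 CPM in the knockout. It fell by 0.14 on the log2 scale (SE 0.04, adjusted p = 0.0144), a call lost without WT replicate 1 (0.148), knockout replicate 1 (0.138) or knockout replicate 2 (0.0639) and with low counts kept (0.0656). Pag1, which encodes the membrane anchor of CSK, had -0.12 ± 0.07 (adjusted p = 0.211). Ptpn6, which encodes the phosphatase SHP-1, had 0.06 ± 0.05. The partners Ptpn22 and Csk therefore moved in opposite directions.

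Diacylglycerol kinases remove the messenger that recruits RASGRP1 and protein kinase C theta, and the 2 genes moved apart as well. Dgka had 163 and 158 CPM in WT and 191 and 194 CPM in the knockout, a rise of 0.27 ± 0.04 (adjusted p = 1.69e-04). Dgkz had 356 and 338 CPM in WT and 322 and 319.7 CPM in the knockout, a fall by 0.11 (SE 0.04, adjusted p = 0.0368). The Dgkz call was lost without WT replicate 1 (0.305), knockout replicate 1 (0.145) or knockout replicate 2 (0.183), in DESeq2 (0.0898), with upper-quartile factors (0.0592), with low counts kept (0.104), and in limma on log2(FPKM + 0.1) (0.0792) or log2(FPKM + 1) (0.0767). The FPKM ratio of Dgka to Dgkz was 0.580 and 0.590 in WT and 0.753 and 0.769 in the knockout.

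CD5 and CD6 are related surface receptors that dampen receptor signals, and both genes fell. Cd6 had 367 and 372 CPM in WT and 295 and 309 CPM in the knockout, a fall by 0.29 on the log2 scale (SE 0.04, adjusted p = 5.32e-05). Cd5 had 295 and 296 CPM in WT and 252 and 263 CPM in the knockout, a fall by 0.20 (SE 0.04, adjusted p = 0.0012). In neither gene did the groups overlap. The genes are neighbours on chromosome 19, with Cd5 at 10718107 to 10739026 and Cd6 at 10789339 to 10830062 (GRCm38.p6). They are 50313 bases apart, and with the Cd3 cluster they are the only members within 100000 bases of another. Cd6 fell somewhat more: the FPKM ratio of Cd6 to Cd5 was 0.846 and 0.855 in WT and 0.798 and 0.799 in the knockout.

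Per length the members spanned a wide range, with Lat first and Txk, at 2.64 to 3.20 FPKM, last in both groups. Lck at 228 and 229 FPKM and Cd4 at 191 and 187 FPKM followed Lat in WT. In the knockout Lck (222 and 219) and Cd4 (225 and 215) overlapped. Csk and Cd5, at ranks 4 and 5 in WT, stood at ranks 6 and 10 in the knockout, where Cd3g and Cd3e held ranks 4 and 5. Cblb went from rank 32 to rank 25. Neighbours in this order often do not differ beyond their spread: in WT, the values of Lcp2 (140 and 139) lay within those of Cd3g (133 and 143).

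**Figure D4:**
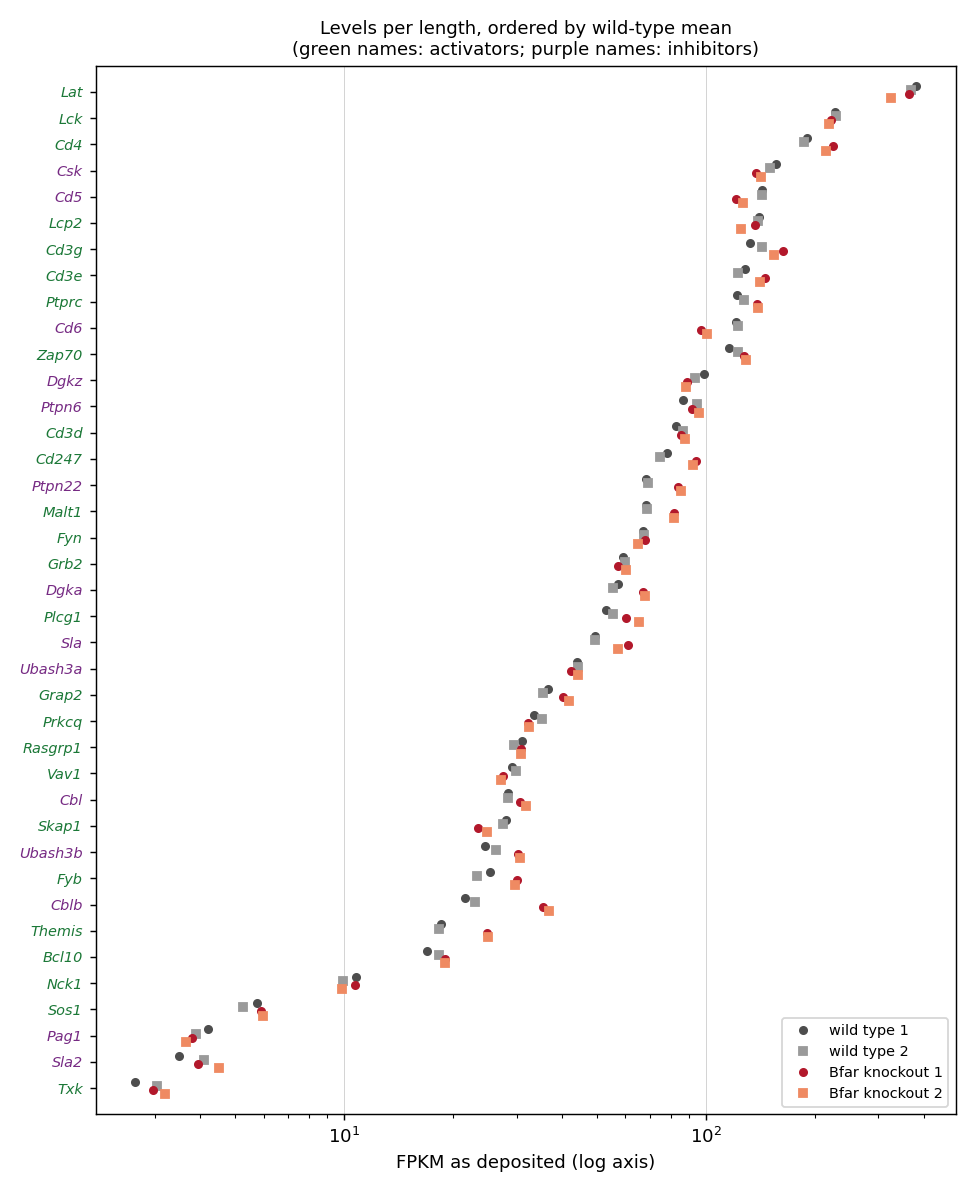
FPKM as deposited (x axis, log scale) of the 39 genes in each of the 4 libraries, ordered by the WT mean; grey points are WT, red and orange points are knockout, and name colour gives the role. Levels run from 2.64 FPKM for Txk to 382 FPKM for Lat, and Cblb shows the widest gap between the groups.

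The tables also give a mean transcript length for each gene, which shifts when the mix of its transcripts shifts. Of the 20 members with several transcripts, 6 had lengths that did not overlap between the groups (Ptprc, Grb2, Fyb, Sla and Cd6 longer in the knockout, Pag1 shorter), a share near the 31% of all such genes (17.6% longer and 13.3% shorter). Lengths were compared as deposited with no tolerance, and the nearest values of the groups were only 0.03 bases apart for Grb2, against 1.76 to 8.51 bases for the other 5. For Ptprc, whose transcripts differ by the exons that define the CD45 isoforms, the mean length was 5262 and 5257 bases in WT and 5269 and 5278 bases in the knockout. These shifts are small against the gene's length.

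A further 69 genes of the pathway that are not among the 39, also chosen with earlier results of these data known, were examined. All 69 were tested. Of these 14 rose and 8 fell (20.3% and 11.6%, against 13.6% and 13.2% of all tested genes), with a median log2 fold change of 0.05. A mean of at least 25 CPM was reached by 54 of the 69, and of all genes that abundant 16.6% rose and 19.3% fell. Fits without 1 library made fewer calls among all genes too: 6 of the 69 rose and 1 fell without knockout replicate 2, that is 10.1% changed against 11.1% of all genes tested in that fit. Without WT replicate 1, 10 rose and 2 fell (17.4% against 16.5%), without WT replicate 2, 12 rose and 3 fell (21.7% against 18.1%), and without knockout replicate 1, 10 rose and 2 fell (17.4% against 14.6%). Among the rises with the smallest adjusted p were those of Wipf1, Cd28 and Gab2. Wipf1, which encodes the partner of the actin regulator WASP, rose by 0.39 ± 0.03 (adjusted p = 1.17e-06). Cd28, the costimulatory receptor engaged by the culture's antibody, had 125 and 131 CPM in WT and 162 and 160.4 CPM in the knockout (log2 0.34 ± 0.04). Gab2, an adaptor at only 4.04 to 8.16 CPM, rose by 0.88 ± 0.15. Among the falls with the smallest adjusted p were those of Ptpn7, Stim2 and Map2k2, by 0.16, 0.18 and 0.18 on the log2 scale. Ptpn7 is a phosphatase of MAP kinases, Map2k2 is a kinase of that cascade, and Stim2 senses calcium in the endoplasmic reticulum. Each of these 3 falls lost its call without at least 1 library, with adjusted p up to 0.113 for Ptpn7, 0.0964 for Stim2 and 0.137 for Map2k2.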

How the data were processed

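Each of the 4 libraries has 1 deposited table. Per the submitters' processing notes, reads were aligned with Bowtie and quantified with RSEM on GRCm38 (mm10); neither versions nor a strand setting is given in the sources used here. Per the file headers, the authors' tables give an expected count (RSEM's estimate, not always whole), an FPKM value and a mean transcript length per gene, with identifiers of NCBI genes. A gene missing from a table was taken as 0.

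Knockout and WT were compared on rounded expected counts by edgeR's two-sided quasi-likelihood test (version 4.0.16, R 4.3.3). It used TMM factors (0.997 to 1.0022), filterByExpr (at least 10 counts, and 15 in total) and Benjamini-Hochberg adjustment over 12677 genes. CPM values are TMM-scaled. A standard error is the absolute log2 fold change divided by the square root of F. Alternatives used DESeq2 1.42.0, limma 3.58.1 on log2 FPKM, other scalings and filters, and leaving out each library. The edgeR, DESeq2 and limma scripts were tested on simulated counts. There limma was run on log2(CPM + 0.1), so its use on log2 FPKM was not tested. No 2 libraries were duplicates (chi-square per degree of freedom 2.21 and 2.55 within groups, 14.2 to 17.6 across). A library's 3 counts correspond to 0.152 to 0.157 CPM.

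Members and lists were chosen with earlier results of these data known. Values in every library are given for the called members, up to the 12 with the largest absolute log2 fold change, and for the CD3 chains, Cd4, Lck, Zap70 and Lat; of the other pathway genes, up to 4 higher and 4 lower with the smallest adjusted p are named, apart from items not reported here. The values by library of other members were added after values were seen. Shared 31-base words were counted in GENCODE M21 transcripts, and positions and upstream sequences are from RefSeq (GRCm38.p6).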

Additional observations from a re-analysis of the deposited data

How the results depend on the processing

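Bfar kept its fall in every fit, at -2.16 to -2.02 on the log2 scale without any 1 library. Leaving out 1 library gave 15 to 21 changed members (21 in the full fit), 12 to 16 higher and 2 to 5 lower, while the share of all genes called was 11.1% to 18.1% (26.8% in the full fit). By role it gave 7 to 11 activators higher and 0 to 2 lower, and 5 to 6 inhibitors higher and 2 to 4 lower, with medians of 0.065 to 0.16 for activators and 0.024 to 0.13 for inhibitors. Other pathway genes numbered 7 to 15 changed, 6 to 12 higher and 1 to 3 lower. DESeq2 called 3 members lower, 0 of them activators, and 10 other pathway genes (8 higher, 2 lower). With no filter on low counts 2 members were lower (0 activators, 2 inhibitors) and 4 other pathway genes were lower. With log2(FPKM + 0.1), and likewise with log2(FPKM + 1), 14 other pathway genes were called, 9 higher and 5 lower. With unfiltered FPKM and a pseudocount of 0.1, limma called 4 members, all higher (2 activators, 2 inhibitors, 0 lower in either role), and 1 other pathway gene (1 higher, 0 lower), with 17478 genes tested. With an absolute log2 fold change of at least 0.25, 10 members were called, 9 higher and 1 lower. Without the 4 genes of both kinds of role, the medians were 0.076 for activators and 0.14 for inhibitors. The causes of these shifts were not tested.

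The labels share replicate numbers, but nothing says that these mark a shared mouse or day, and the deviations of same-numbered libraries hardly correlated (0.04 across genes). In the fit with the replicate block all 21 calls remained, and Zap70, Lat and Vav1 passed as well, so that 3 activators were lower.

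Only values close to 0 turned sign. Grb2 was -0.012 with log2(FPKM + 0.1), filtered or not, and -0.011 with log2(FPKM + 1), and ran from -0.036 to 0.040 without any 1 library. Nck1 was 0.0086 with upper-quartile factors and ran from -0.061 to 0.055 without any 1 library. Over the same omissions Fyn ran from -0.044 to 0.016, Ubash3a from -0.051 to 0.012, Rasgrp1 from -0.0018 to 0.072 and Ptpn6 from -0.0043 to 0.12. The least abundant members, Txk and Sla2, had the widest errors (SE 0.13 and 0.12).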
